A study of Mus musculus with 23 samples.

Results

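The *Cyp2c* genes encode the CYP2C subfamily of cytochromes P450. The members were all probes that carry, in the array's annotation, the name of 1 of 9 genes: *Cyp2c55*, *Cyp2c65*, *Cyp2c66*, *Cyp2c29*, *Cyp2c38*, *Cyp2c40*, *Cyp2c44*, *Cyp2c68* and *Cyp2c69*. These 9 genes had 11 of the 56605 probes on the array, and the array carried 16 *Cyp2c* genes in all. Of the 11 probes, 10 passed the filter on dim probes and were tested among 37591 probes, which stood for 17727 genes. All 9 genes kept at least 1 tested probe. The second probe of *Cyp2c44* (named *Cyp2c23* in RefSeq) was well above background on 1 array only and was not tested.

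Ileal RNA of male mice was hybridised to Agilent one-colour arrays, 1 array per mouse. WT C57BL/6J mice were bought at an age of 6 weeks, whereas Pxr-/- mice had been backcrossed on C57Bl/6J and came from a colony bred in house for 10 years. Genotype and origin of the mice therefore cannot be told apart. PCN (pregnenolone 16α-carbonitrile) mice received 100 mg/kg intraperitoneally in corn oil once a day for 4 days, and CONT mice received corn oil only. All mice had free access to food and were killed 6 h after the last injection, at ZT6, that is 6 h after lights on. The study describes mice as semi-fasted at that hour. The arrays numbered 6 for WT CONT, 5 for WT PCN, 6 for Pxr-/- CONT and 6 for Pxr-/- PCN. They had been washed in 2 batches, with 3 arrays of each group in each batch except for WT PCN, which had 2 arrays in wash batch 1 and 3 in wash batch 2.

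PXR (NR1I2) is a nuclear receptor of liver and intestine that binds foreign compounds, bile acids and steroids, pairs with RXR and activates genes of drug metabolism. PCN is a ligand of the rodent receptor. CYP2C enzymes sit in the membrane of the endoplasmic reticulum, take electrons from cytochrome P450 reductase and oxidise drugs, steroids and polyunsaturated fatty acids such as arachidonic acid. In the mouse the genes lie in a cluster on chromosome 19, with *Cyp2c44* apart from the others, and the cluster arose by repeated duplication, so that neighbours are alike in sequence.

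How far each probe belongs to 1 gene can be read from its sequence and annotation. The arrays carried 60-base probes, and coordinates are those of the array annotation (mm9). The second probe of *Cyp2c55* (chr19:39110063-39110122, plus strand, base 1116 of the transcript) and the probe of *Cyp2c29* (chr19:39403642-39403701, plus strand, base 1230) were annotated to their own gene only. The probe of *Cyp2c40* (chr19:39861388-39877026, minus strand, base 854) spans an intron and was annotated to *Cyp2c68* as well. These 3 probes are shown whole because the calls for *Cyp2c55*, *Cyp2c29* and *Cyp2c40* rest on them or are repeated by them.
Cyp2c55, second probe: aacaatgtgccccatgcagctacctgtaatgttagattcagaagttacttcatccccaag
Cyp2c29: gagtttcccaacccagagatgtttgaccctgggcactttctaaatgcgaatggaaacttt
Cyp2c40: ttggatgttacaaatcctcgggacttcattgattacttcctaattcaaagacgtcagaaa
The probes that represent *Cyp2c55* (chr19:39116674-39116733, plus strand), *Cyp2c65* (chr19:39168290-39168349, plus strand) and *Cyp2c66* (chr19:39261183-39261242, plus strand) lie nearer the 3′ end of their transcripts, and only their first 30 bases are shown.
Cyp2c55: ttcattcctcgttaaagcagaacacactgg
Cyp2c65: gtctgcaattccctatgctatgcaatgatt
Cyp2c66: tctctgaccctatcaccagagttctgggat

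The probe of *Cyp2c66* was annotated to *Cyp2c65* too, that of *Cyp2c68* to *Cyp2c40* and *Cyp2c69*, and that of *Cyp2c69* to *Cyp2c40*, *Cyp2c67* and *Cyp2c68*. Signals within *Cyp2c65* and *Cyp2c66*, and within *Cyp2c40*, *Cyp2c67*, *Cyp2c68* and *Cyp2c69*, are therefore uncertain as to the gene. The probes of *Cyp2c67* and *Cyp2c68* were the closest pair in sequence, with 55 of 59 overlapping bases identical, although neither was annotated to the other gene. Matching stretches of 30 bases are shown, with the 2 bases that differ in capitals.
Cyp2c67: acAcagtcccagAaattccatctatattcc
Cyp2c68: acCcagtcccagGaattccatctatattcc

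Neighbouring genes were also alike upstream. RefSeq (GRCm38.p6) gave a promoter for 8 of the 9 genes. Over the bases from 250 before to 50 after the start site, *Cyp2c65* and *Cyp2c66* shared 256 of 271 aligned bases and *Cyp2c40* and *Cyp2c69* shared 267 of 270, whereas *Cyp2c55* and *Cyp2c65* shared 174 of 271. The 250 bases before the start were searched on both strands for AGNTCA (N is any base) and for CAAAGTCCA. AGNTCA is a loose pattern that takes in the half-sites PXR and related receptors bind in pairs, but also other sequences. CAAAGTCCA is a sequence bound by the nuclear receptor HNF4A. AGNTCA was found in 5 of the 8 promoters (*Cyp2c55*, *Cyp2c29*, *Cyp2c38*, *Cyp2c40* and *Cyp2c69*), against 41.3% of the 32851 promoters in the table. CAAAGTCCA was found in 4 of the 8 (*Cyp2c65*, *Cyp2c40*, *Cyp2c68* and *Cyp2c69*), against 0.384% of all promoters. The last 3 are close copies of each other, since *Cyp2c68* shared 251 of 266 aligned bases with *Cyp2c40* and 277 of 296 with *Cyp2c69*. The 4 matches are therefore not independent of each other. Direct repeats of AGNTCA spaced by 3 or 4 bases, or everted repeats spaced by 6, were in 0 of the 8, and in 0.0517%, 0.103% and 0.0304% of all promoters, respectively. The upstream bases of the 3 genes with the largest changes are shown with matches to AGNTCA or CAAAGTCCA in capitals. They lie on the plus strand at chr19:39006769-39007018, chr19:39060756-39061005 and chr19:39113648-39113897, in the order printed. Both marked stretches of *Cyp2c55* read AGCTCA, and binding was not tested.
Cyp2c55: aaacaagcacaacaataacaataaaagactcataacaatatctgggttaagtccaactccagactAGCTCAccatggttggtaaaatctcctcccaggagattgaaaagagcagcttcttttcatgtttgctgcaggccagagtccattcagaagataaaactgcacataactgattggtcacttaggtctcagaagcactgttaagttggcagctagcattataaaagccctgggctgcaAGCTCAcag
Cyp2c65: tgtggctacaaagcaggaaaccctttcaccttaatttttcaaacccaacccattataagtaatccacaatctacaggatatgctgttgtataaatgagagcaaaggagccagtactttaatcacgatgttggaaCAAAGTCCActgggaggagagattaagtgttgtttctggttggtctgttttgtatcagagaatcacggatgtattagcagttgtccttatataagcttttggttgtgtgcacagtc
Cyp2c66: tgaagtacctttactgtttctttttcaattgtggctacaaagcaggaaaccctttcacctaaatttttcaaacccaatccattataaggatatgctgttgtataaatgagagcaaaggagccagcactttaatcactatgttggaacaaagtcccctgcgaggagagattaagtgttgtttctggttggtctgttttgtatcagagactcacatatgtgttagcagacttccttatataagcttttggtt

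The tissue label was checked first. All 8 markers of ileal enterocytes were well above background on every array, their mean level lay between 15.88 and 16.27 on every array, and 0 of 8 were called in any contrast. The probe of *Nr1i2*, the targeted gene, read 12.13 ± 0.23 in WT CONT and 11.72 ± 0.30 in Pxr-/- CONT (mean log2 signal ± SD, n = 6 each), with overlapping ranges, so that it does not check the genotype labels. Markers of other cells differed in some comparisons. The neutrophil genes *S100a8* and *S100a9* rose with PCN in both genotypes, and the smooth muscle genes *Cnn1* and *Tagln* rose with PCN in Pxr-/- mice (2 of 4 and 2 of 5 markers tested). The 5 B cell markers averaged 7.02 to 9.53 across WT PCN arrays, against 6.58 to 6.88 in WT CONT, with 0 called, and 0 markers were called in any of the other lists (colon, liver, proximal small intestine, crypt, goblet and Paneth cells, adipose tissue, pancreas). Pxr-/- CONT replicate 3 and Pxr-/- PCN replicate 3 stood apart for genes of the colon: *Car1* (carbonic anhydrase 1) read 11.38 and 13.84 there, against 6.04 to 7.03 on the other 21 arrays, and *Aqp8* (a water channel) 6.53 and 9.99, against 4.83 to 5.29. The part of these cells in the *Cyp2c* results was not tested. Results without those 2 arrays are given below where a call changed, and for some other values. Changes and adjusted p also shifted without them for further genes, and not all of these are given.

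The first comparison asked how far the genes depend on PXR without PCN. *Cyp2c55*, *Cyp2c65* and *Cyp2c66* were lower in Pxr-/- CONT than in WT CONT, on every array, and the other 6 members were not called. *Cyp2c55*, a P450 of the gut that oxidises arachidonic acid, had a log2 signal of 10.23 at the lowest, 11.46 at the median and 12.85 at the highest in WT CONT. The corresponding values in Pxr-/- CONT were 6.46, 6.68 and 7.69. The 2 groups were thus separated by a wide gap, and the fitted difference was -4.63 (SE 0.446, adjusted p 8.6e-06, limma), which is 24.7-fold. The second *Cyp2c55* probe differed by -4.27 (adjusted p 1.61e-05). The 2 probes averaged 6.88 and 6.06 in Pxr-/- CONT, and background was not subtracted. Fold changes against that group therefore depend on the background level. In bulk tissue, fewer cells that express a gene and less RNA per cell cannot be told apart.

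*Cyp2c65* read 11.38, 11.93 and 12.47 (lowest, median and highest) in WT CONT and 9.67, 10.37 and 10.84 in Pxr-/- CONT. *Cyp2c66* read 10.73, 11.35 and 12.07 in WT CONT and 9.25, 9.96 and 10.26 in Pxr-/- CONT. Neither gene's groups overlapped. The fitted differences were -1.59 for *Cyp2c65* (SE 0.248, adjusted p 0.00315) and -1.54 for *Cyp2c66* (SE 0.256, adjusted p 0.00641). These are the next genes along the chromosome from *Cyp2c55*, and both encode P450s known mainly from the gut.

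A gene was called when its adjusted p was at most 0.05 and its change above 1.5-fold. In this comparison 3 of the 9 genes were called, all lower in Pxr-/- CONT, where 0.214% of all genes tested were called and 0.164% were called lower. The median difference was -0.89 over the 9 genes and 0.00 over all genes. The 3 calls held in all 16 other settings of the processing and without any single array. Within wash batch 1 and wash batch 2, *Cyp2c55* differed by -4.23 and -5.03, *Cyp2c65* by -1.32 and -1.85, and *Cyp2c66* by -1.23 and -1.84. Without the 2 arrays with high *Car1*, the difference of *Cyp2c55* was -4.75 (adjusted p 2.44e-05).

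**Figure D1:**
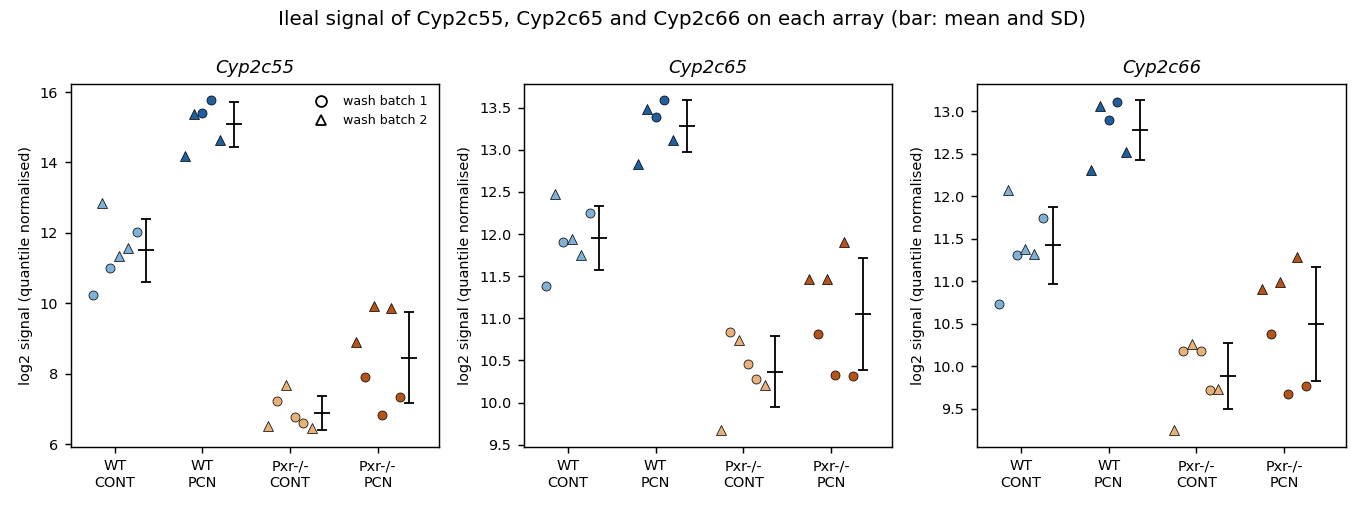
Log2 signal (quantile normalised, y axis) of *Cyp2c55*, *Cyp2c65* and *Cyp2c66* on each array by group (x axis). Circles are wash batch 1, triangles wash batch 2, and bars the mean ± SD of 5 or 6 arrays. All 5 WT PCN arrays lie above all WT CONT arrays, and the 3 Pxr-/- PCN arrays of wash batch 2 lie above the 3 of wash batch 1.

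*Cyp2c29*, *Cyp2c40*, *Cyp2c68* and *Cyp2c69* formed a second set with smaller differences. *Cyp2c29*, a major CYP2C enzyme of mouse liver, read 9.80, 10.28 and 10.58 (lowest, median and highest) in WT CONT and 8.95, 9.29 and 10.20 in Pxr-/- CONT. *Cyp2c40*, an arachidonic acid hydroxylase, read 8.24, 8.98 and 9.22 in WT CONT and 7.41, 7.85 and 8.69 in Pxr-/- CONT. For each of these 4 genes, 5 of 6 Pxr-/- CONT arrays were below every WT CONT array, and replicate 4 was the exception. The differences were -0.98 for *Cyp2c40* (adjusted p 0.0524), -0.89 for *Cyp2c29* (adjusted p 0.084), -0.81 for *Cyp2c68* (adjusted p 0.0653) and -0.77 for *Cyp2c69* (adjusted p 0.0805), so that none of the 4 was called.

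These genes lay close to the threshold, and their calls changed with the fit and with single arrays. In 6 of the 16 other settings, and in 18 of the 23 fits without 1 array, none of the 4 was called. Without the 2 arrays with high *Car1* their adjusted p (limma) was 0.127 for *Cyp2c40*, 0.179 for *Cyp2c29*, 0.119 for *Cyp2c68* and 0.129 for *Cyp2c69*. With all arrays kept and the slide as a fixed block all 4 were called (adjusted p 0.0175 for *Cyp2c40*, 0.0218 for *Cyp2c68*, 0.0263 for *Cyp2c29* and 0.0267 for *Cyp2c69*), and with the slide as a random block *Cyp2c40* (adjusted p 0.0365) and *Cyp2c68* (adjusted p 0.0463). *Cyp2c40* was also called with the deposited log2 values of the authors (adjusted p 0.0499). Without Pxr-/- CONT replicate 4 all 4 were called, at differences of -1.15 for *Cyp2c40*, -1.08 for *Cyp2c29*, -0.96 for *Cyp2c68* and -0.90 for *Cyp2c69* (adjusted p 0.00592, 0.00698, 0.00912 and 0.0178), which brought the count to 7 of 9. All 4 were likewise called without Pxr-/- PCN replicate 1, an array outside the contrast that enters through the shared estimate of the spread. *Cyp2c40* was also called without WT CONT replicate 1 (adjusted p 0.0274) or Pxr-/- PCN replicate 5 (adjusted p 0.0369), and *Cyp2c68* without Pxr-/- PCN replicate 5 (adjusted p 0.0488) or replicate 6 (adjusted p 0.0485).

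The second comparison asked for the response to PCN. In WT mice *Cyp2c55* rose 11.4-fold, *Cyp2c66* 2.51-fold and *Cyp2c65* 2.48-fold, and none of the other members passed the test. The WT PCN arrays read 14.19, 15.39, 15.41, 15.77 and 14.64 for *Cyp2c55* (replicates 1 to 5), all above the highest WT CONT array at 12.85. The fitted change was 3.51 (SE 0.469, adjusted p 0.000155), and 3.52 at the second probe (adjusted p 0.000136). No spot of a *Cyp2c* probe was saturated.

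*Cyp2c65* read 12.83, 13.48, 13.39, 13.59 and 13.12 on the WT PCN arrays, and *Cyp2c66* read 12.30, 13.06, 12.89, 13.11 and 12.51. All 5 arrays were again above every WT CONT array for both genes. The changes were 1.31 for *Cyp2c65* (SE 0.261, adjusted p 0.00936) and 1.33 for *Cyp2c66* (SE 0.269, adjusted p 0.0107). The order of the 5 arrays was alike in the 3 genes, with replicate 4 the highest and replicate 1 the lowest.

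In this contrast 3 of the 9 genes were called, all higher, where 1.05% of all genes were called and 0.931% were called higher. The median change was 0.48 over the 9 genes and -0.02 over all genes. The 3 calls held in all 16 other settings and without any single array. Within wash batch 1 and wash batch 2 the rise was 4.50 and 2.82 for *Cyp2c55*, 1.65 and 1.08 for *Cyp2c65* and 1.74 and 1.04 for *Cyp2c66*.

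None of the second set was called with PCN in WT mice. *Cyp2c40* read 9.37, 9.66, 9.45, 9.29 and 9.39 on the WT PCN arrays, all above the highest WT CONT array at 9.22, yet the change of 0.53 (SE 0.220) did not pass the test (adjusted p 0.316). *Cyp2c29* differed by 0.48 (adjusted p 0.383), with 4 of 5 arrays above every WT CONT array. *Cyp2c69* and *Cyp2c68* differed by 0.21 and 0.17 (adjusted p 0.723 and 0.801), with ranges that overlapped.

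In Pxr-/- mice 0 of the 9 genes were called with PCN, and the values split by wash batch. *Cyp2c55* read 6.84 at the lowest, 8.40 at the median and 9.91 at the highest in Pxr-/- PCN, against 6.46, 6.68 and 7.69 in Pxr-/- CONT, and 4 of 6 PCN arrays were above every CONT array. The difference was 1.58 (SE 0.446, 95% interval 0.66 to 2.51), with an adjusted p of 0.0502 that missed the threshold narrowly. At the second probe it was 1.30 (adjusted p 0.101). *Cyp2c65* differed by 0.68 (adjusted p 0.126), *Cyp2c66* by 0.61 (adjusted p 0.186), *Cyp2c40* by 0.46 (adjusted p 0.233) and *Cyp2c29* by 0.40 (adjusted p 0.298).

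In wash batch 1 the Pxr-/- PCN arrays, replicates 2, 4 and 6, read 7.90, 6.84 and 7.34 for *Cyp2c55*. In wash batch 2, replicates 1, 3 and 5 read 8.91, 9.91 and 9.86, so that the 2 batches did not overlap. The Pxr-/- CONT arrays did not split in this way, at 6.60 to 7.24 in batch 1 and 6.46 to 7.69 in batch 2. The PCN difference of *Cyp2c55* in Pxr-/- mice was therefore 0.49 within batch 1 and 2.67 within batch 2, with 3 arrays a group in each. In the deposited log2 values, corrected for wash batch by the authors, the Pxr-/- PCN arrays of the 2 batches overlapped for *Cyp2c55*. They read 7.35 to 8.49 in batch 1 and 8.39 to 9.40 in batch 2. The Pxr-/- CONT arrays there read 7.11 to 7.77 in batch 1 and 5.98 to 7.17 in batch 2. Which group differed by batch thus depended on the values used.

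The Pxr-/- PCN arrays of the 2 batches did not overlap for *Cyp2c65*, *Cyp2c66*, *Cyp2c40*, *Cyp2c68* and *Cyp2c69* either, and they overlapped for *Cyp2c29*, *Cyp2c44* and *Cyp2c38*. Within batch 1 the PCN difference in Pxr-/- mice was -0.04 for *Cyp2c65*, -0.09 for *Cyp2c66*, -0.12 for *Cyp2c40*, -0.15 for *Cyp2c29*, -0.19 for *Cyp2c69* and -0.22 for *Cyp2c68*. Within batch 2 it was 1.41, 1.31, 1.03, 0.95, 0.58 and 0.74, in the same order. *Cyp2c44* differed by 0.19 and 0.84. In *Cyp2c38*, the exception, the values were -0.18 and 0.00. A term for wash batch in the fit removes a shift shared by all groups, but not a PCN difference that is itself unlike between batches. The part of the wash batch in these values was not tested beyond giving them apart.

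**Figure D2:**
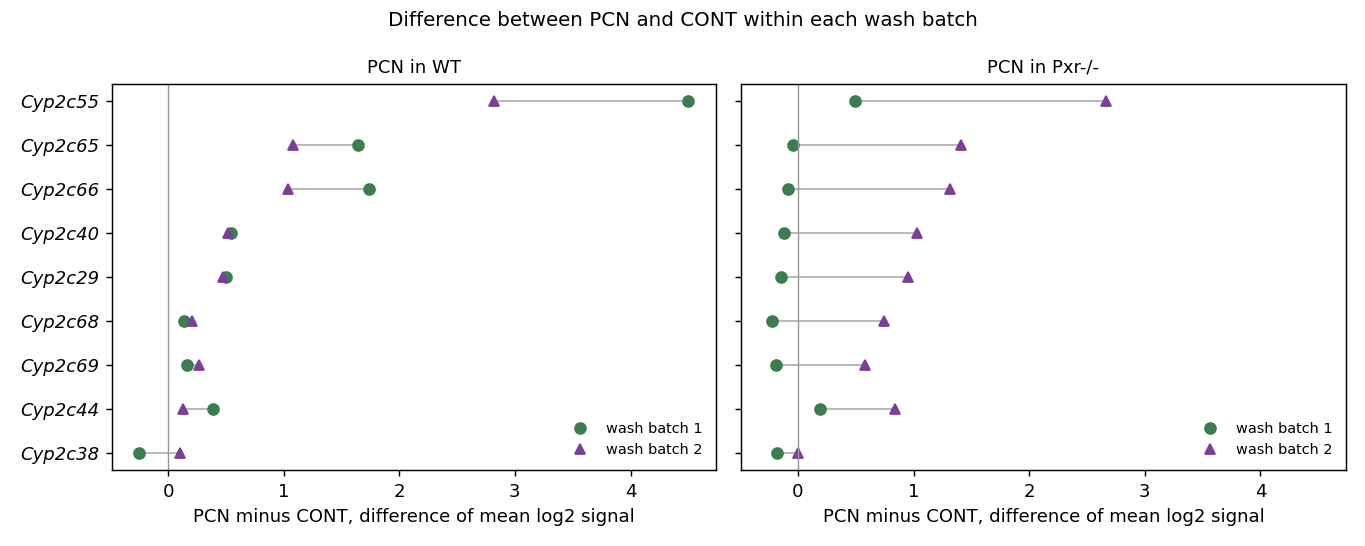
Difference between mean log2 signals of PCN and CONT arrays (x axis) within wash batch 1 (circles) and wash batch 2 (triangles) for the 9 *Cyp2c* genes, in WT mice (left) and Pxr-/- mice (right). Each mean is over 3 arrays, or 2 for WT PCN in batch 1. In Pxr-/- mice *Cyp2c55* differed by 0.49 in batch 1 and 2.67 in batch 2, and 6 of the other genes were at or below 0 in batch 1 and above 0.5 in batch 2.

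The call for *Cyp2c55* in Pxr-/- mice depended on the setting. It was made in 7 of 16 other settings (adjusted p from 0.0409 to 0.0943 over the 16), among them the deposited log2 values of the authors (adjusted p 0.0484). It was also made without any 1 of 8 arrays: WT CONT replicates 1 and 2, WT PCN replicates 1, 3 and 4, Pxr-/- CONT replicate 2, and Pxr-/- PCN replicates 4 and 6 (adjusted p from 0.023 to 0.05). The array with the highest *Cyp2c55* in each Pxr-/- group was replicate 3, which also had the high *Car1*. Without both arrays the difference was 1.45 (adjusted p 0.0943). Pxr-/- PCN replicate 5, with 9.86 for *Cyp2c55*, had a *Car1* signal of 6.18. Beside the 0 of 9 members called by limma, 5 of 9 had an unadjusted p under 0.05 (*Cyp2c55*, *Cyp2c65*, *Cyp2c66*, *Cyp2c40* and *Cyp2c44*), as had 23.2% of all genes. In all, 1.47% of all genes were called for PCN in Pxr-/- mice and 1.2% were called higher. The median difference was 0.46 over the 9 genes and 0.00 over all genes.

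Whether the response differed between the genotypes was tested directly, and no member passed. The change in WT minus that in Pxr-/- mice was 1.93 for *Cyp2c55* (SE 0.647, 95% interval 0.59 to 3.27, unadjusted p 0.00686, adjusted p 0.787). At its second probe it was 2.22 (unadjusted p 0.00223, adjusted p 0.555). It was 0.72 for *Cyp2c66* (interval -0.05 to 1.49) and 0.63 for *Cyp2c65* (interval -0.12 to 1.37). For *Cyp2c29*, *Cyp2c40*, *Cyp2c68* and *Cyp2c69* it lay between -0.09 and 0.08, with intervals that reached 0.71 in size, so that a difference of that size could not be told from 0 with these arrays.

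limma called 0 of 9 genes here, in all settings, and 1 of 9 (*Cyp2c55*) had an unadjusted p under 0.05. Of all genes, 0.118% were called in this contrast and 5.06% had an unadjusted p of at most 0.05. The wash batches again differed: the value for *Cyp2c55* was 4.00 within batch 1 and 0.15 within batch 2, that for *Cyp2c65* 1.69 and -0.32, and that for *Cyp2c66* 1.83 and -0.27. The batch 1 values, and not those of batch 2, placed the WT response above the Pxr-/- response for *Cyp2c65* and *Cyp2c66*.

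**Figure D3:**
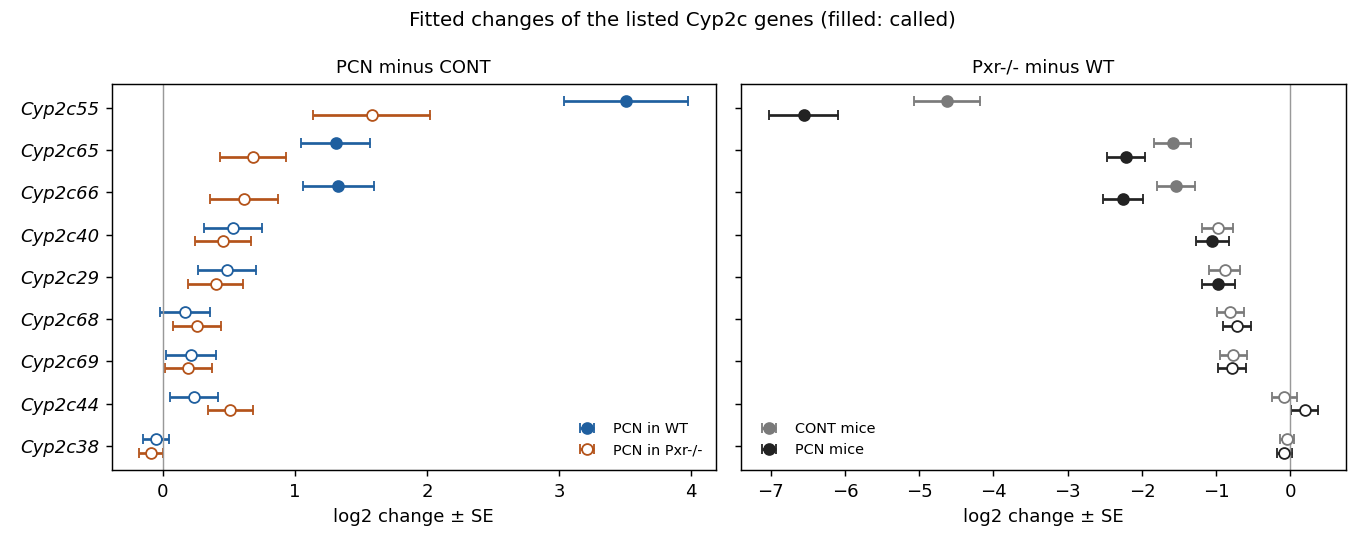
Fitted log2 changes ± SE (x axis) of the 9 *Cyp2c* genes for PCN minus CONT in each genotype (left) and Pxr-/- minus WT in each treatment (right). Filled points were called (adjusted p at most 0.05 and above 1.5-fold). *Cyp2c55* rose by 3.51 in WT mice and was lower by 4.63 in Pxr-/- CONT mice, and *Cyp2c38* stayed within 0.09 of 0 in every contrast.

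With PCN, *Cyp2c55* was 94.2-fold lower in Pxr-/- PCN than in WT PCN, with 9.91 as the highest Pxr-/- array and 14.19 as the lowest WT array. The fitted difference was -6.56 (SE 0.469, adjusted p 8.94e-09). At the second probe it was -6.49, which is 89.7-fold (adjusted p 8.94e-09, limma). The lowest Pxr-/- PCN array read 6.84 for *Cyp2c55* without background subtraction, so these folds too depend on the background level. *Cyp2c66* differed by -2.25 (SE 0.269, adjusted p 2.78e-05) and *Cyp2c65* by -2.21 (SE 0.261, adjusted p 2.28e-05), and all 6 Pxr-/- PCN arrays were below all 5 WT PCN arrays in the 3 genes. Within wash batch 1 and wash batch 2, *Cyp2c55* differed by -8.23 and -5.18, *Cyp2c65* by -3.01 and -1.53 and *Cyp2c66* by -3.06 and -1.57.

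*Cyp2c40* and *Cyp2c29* were called as well, at -1.05 (SE 0.220, adjusted p 0.0219) and -0.97 (SE 0.220, adjusted p 0.0401). *Cyp2c40* read 7.89, 8.23 and 9.27 (lowest, median and highest) in Pxr-/- PCN, and *Cyp2c29* read 9.21, 9.72 and 10.71. For *Cyp2c29* 5 of 6 arrays, and for *Cyp2c40* 6 of 6, were below every WT PCN array. Both calls were lost with the slide as a fixed block (*Cyp2c40*: -0.94, adjusted p 0.0931; *Cyp2c29*: -0.87, adjusted p 0.173), and without the 2 arrays with high *Car1* (*Cyp2c40*: -1.03, adjusted p 0.0743; *Cyp2c29*: -0.93, adjusted p 0.123). *Cyp2c69* missed the threshold at -0.79 (adjusted p 0.0544), as did *Cyp2c68* at -0.72 (adjusted p 0.111). In all, 5 of the 9 genes were called, all lower in Pxr-/- PCN, where 0.542% of all genes were called and 0.468% were called lower. The median difference was -0.97 over the 9 genes and 0.01 over all genes. This contrast shares its arrays with those above, so its values are not independent of them.

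Calls outside the first 3 genes also changed with single arrays. *Cyp2c40* lost its call without any 1 of 6 arrays, WT PCN replicates 2 and 3 and Pxr-/- PCN replicates 2, 3, 4 and 6 (adjusted p from 0.0533 to 0.0694). *Cyp2c29* lost its call without any 1 of 15 arrays, which were every array of WT PCN, WT CONT replicates 4, 5 and 6, Pxr-/- CONT replicates 2, 5 and 6, and Pxr-/- PCN replicates 2, 3, 4 and 6 (adjusted p from 0.0509 to 0.135). *Cyp2c69* gained a call without Pxr-/- CONT replicate 1 or 4 or Pxr-/- PCN replicate 1 (adjusted p 0.0474, 0.026 and 0.00436), and *Cyp2c68* without Pxr-/- CONT replicate 4 or Pxr-/- PCN replicate 1 (adjusted p 0.0483 and 0.0108). *Cyp2c55*, *Cyp2c65* and *Cyp2c66* were called in each of these fits.

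**Figure D4:**
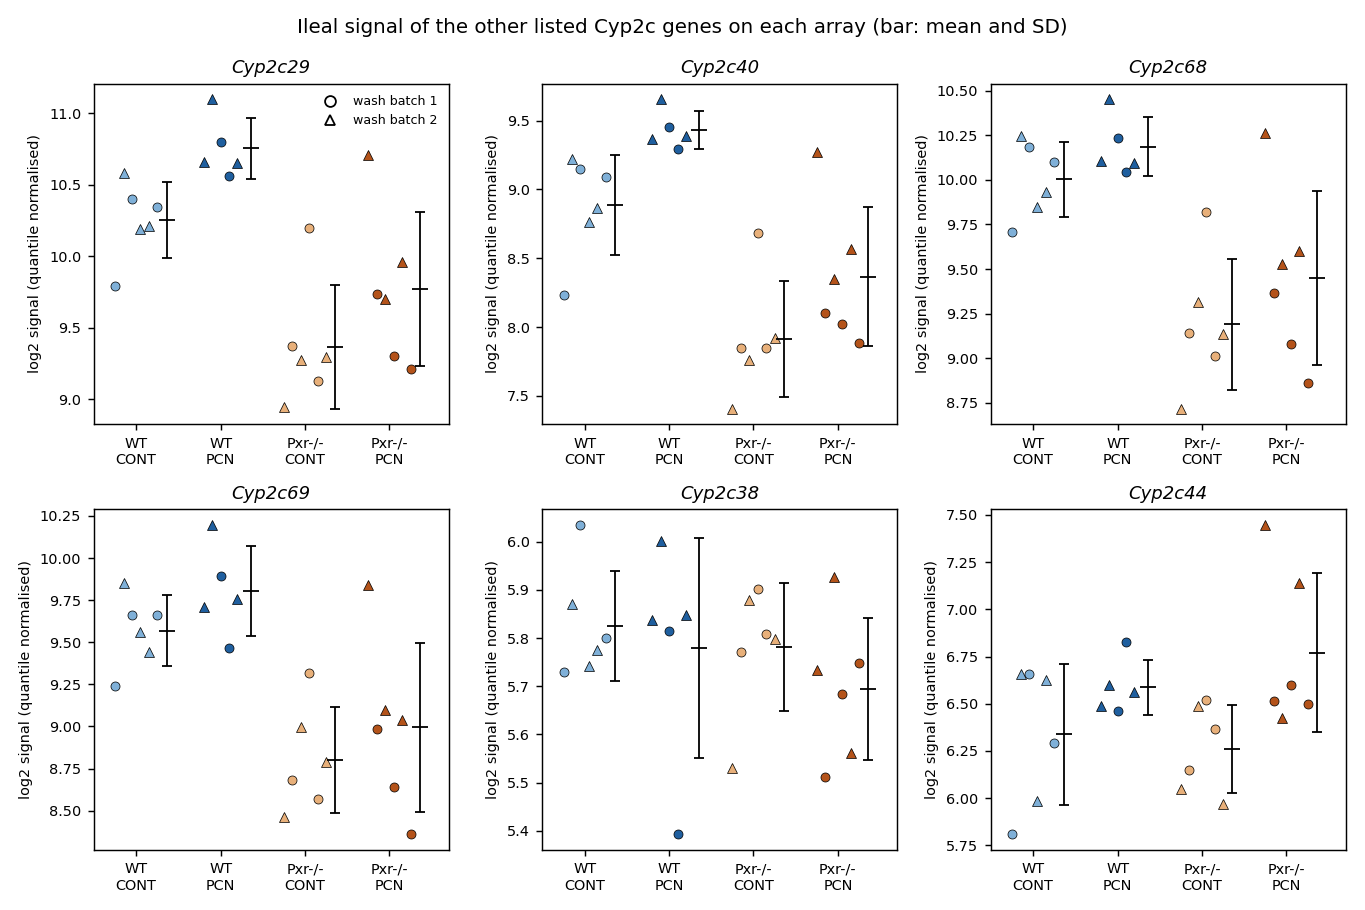
Log2 signal (quantile normalised, y axis) on each array by group (x axis) for *Cyp2c29*, *Cyp2c40*, *Cyp2c68*, *Cyp2c69*, *Cyp2c38* and *Cyp2c44*. Circles are wash batch 1, triangles wash batch 2, and bars the mean ± SD of 5 or 6 arrays. In the first 4 genes Pxr-/- CONT replicate 4 stands above the other arrays of its group (10.20 for *Cyp2c29*), and each panel has its own scale.

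*Cyp2c44* and *Cyp2c38* were not called in any contrast. *Cyp2c44*, an arachidonic acid epoxygenase, read 5.81 to 6.66 in WT CONT, 6.46 to 6.83 in WT PCN, 5.97 to 6.52 in Pxr-/- CONT and 6.43 to 7.45 in Pxr-/- PCN. Its ranges overlapped between all pairs of groups, and its largest difference was 0.51 for PCN in Pxr-/- mice (unadjusted p 0.00717, adjusted p 0.099). *Cyp2c38* read between 5.39 and 6.04 on all arrays, and its differences lay between -0.09 and -0.04 in the 4 contrasts of 2 groups. It was well above background on every array of 3 groups and on 4 of 5 WT PCN arrays, and lay near the background.

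Of the 7 other *Cyp2c* genes on the array, *Cyp2c37*, *Cyp2c39*, *Cyp2c50*, *Cyp2c53-ps* and *Cyp2c54* were not well above background on any array. *Cyp2c67* and *Cyp2c70* were tested. *Cyp2c67*, which lies beside *Cyp2c68*, differed by -0.71 between the genotypes without PCN (adjusted p 0.0695) and by -0.67 with PCN (adjusted p 0.0864), values near those of *Cyp2c68* and *Cyp2c69*. *Cyp2c70*, a bile acid hydroxylase of mouse liver, differed by -0.14 with PCN in WT mice (adjusted p 0.636) and by -0.04 between the genotypes without PCN (adjusted p 0.959).

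Across the 23 arrays the members were compared as 2 sets, which is given as a description since the arrays share groups and wash batches. Pearson's r was 0.98 for *Cyp2c55* with *Cyp2c65*, 0.98 for *Cyp2c55* with *Cyp2c66* and 0.997 for *Cyp2c65* with *Cyp2c66*, and 0.92, 0.94 and 0.98 after the means of group and wash batch were removed. Group and wash batch were removed as separate terms. The PCN difference that was unlike between batches in Pxr-/- mice therefore remains in every r given after the removal. In the second set r ran from 0.95 to 0.99, and from 0.89 to 0.97 after that removal. The probes of *Cyp2c40*, *Cyp2c68* and *Cyp2c69* have annotated genes in common, as have those of *Cyp2c65* and *Cyp2c66*. The probe of *Cyp2c29* was annotated to its own gene only. Between the sets r ran from 0.82 (*Cyp2c55* with *Cyp2c68*) to 0.91 (*Cyp2c66* with *Cyp2c40*), and after the removal from 0.43 (*Cyp2c55* with *Cyp2c69*) to 0.71 (*Cyp2c66* with *Cyp2c68*). *Cyp2c38* reached at most 0.38 with another member, and 0.43 after the removal (*Cyp2c69*). *Cyp2c44*, also in neither set, reached at most 0.46 with another member (*Cyp2c40*). After the removal its r ran from 0.56 (*Cyp2c69*) to 0.74 (*Cyp2c40*) with the second set. With the first set it then ran from 0.44 (*Cyp2c55*) to 0.55 (*Cyp2c66*). The 3 genes outside the family most like each of *Cyp2c55*, *Cyp2c65*, *Cyp2c66*, *Cyp2c29* and *Cyp2c40* were in every case *Cyp3a25*, *Cyp3a57* and *Cyp3a59*, with r from 0.91 to 0.97. After the removal, r with these 3 genes ran from 0.60 to 0.63 for *Cyp2c55* and from 0.73 to 0.80 for *Cyp2c65* and *Cyp2c66*. It ran from 0.85 to 0.88 for *Cyp2c29* and *Cyp2c40*.

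Other genes of the pathway set these values in place. Of 13 tested targets of PXR and of its relative CAR, 9 were called higher with PCN in WT mice. They were led by *Cyp2b10* at 4.61, *Cyp3a11* at 3.53, *Ces2a* at 2.51, *Cyp3a25* at 2.23, *Gstm3* at 2.06, *Abcb1b* at 1.60, *Abcb1a* at 1.48 and *Abcc2* at 1.36. These encode P450s, a carboxylesterase, a glutathione transferase and efflux pumps. In Pxr-/- mice 2 of the 13 were called, *Abcb1a* (1.07) and *Abcb1b* (0.95). Of the 13, 9 were higher there, with a median change of 0.54. An unadjusted p under 0.05 (limma), in either direction, was found for 7 of the 13 and for 23.2% of all genes. *Aldh1a1* (0.54, adjusted p 0.0279) missed only the fold threshold. Without PCN, 4 of the 13 were called lower in Pxr-/- mice, *Cyp3a25* (-2.95), *Cyp3a11* (-1.81), *Abcb1a* (-1.38) and *Abcb1b* (-1.25), whereas *Cyp2c55* was lower by 4.63. The test of the response in WT against Pxr-/- mice was passed by *Cyp2b10* (3.89), *Cyp3a11* (3.58), *Gstm3* (2.17) and *Ces2a* (1.95), and by no *Cyp2c* gene. With PCN in Pxr-/- mice *Cyp3a11* differed by -0.05, whereas *Cyp3a25* differed by 0.77 and *Cyp2b10* by 0.72 (adjusted p 0.259 and 0.25, not called).

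Of 12 tested P450 partners and receptors, 3 were called higher with PCN in WT mice. These were *Cyb5a* (0.72) and *Por* (0.62), which pass electrons to P450s, and *Alas1* (0.62), the first enzyme of haem synthesis. None of the 12 was called with PCN in Pxr-/- mice, where *Por* (0.38, adjusted p 0.0415, limma) missed only the fold threshold. *Alas1* passed the test of the response between genotypes (0.70), and *Cyb5a* was lower in Pxr-/- PCN than in WT PCN (-0.87). Of 15 tested genes of the arachidonic acid pathway, 0 were called for PCN in either genotype, and 1, the hydroxylase *Cyp4f16*, was higher in Pxr-/- PCN than in WT PCN (0.86, adjusted p 0.0202).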

How the data were processed

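Ileal total RNA (150 ng, Cy3) of 23 male mice was measured on Agilent 60-base-probe arrays. The authors scanned them with Agilent Feature Extraction 10.10.1.1, and the deposited scanner files give an intensity per spot, with coordinates of build mm9. The study's methods describe liver arrays and were taken to hold for the ileal arrays. By them, the authors made the deposited log2 value table from median signals that were filtered, corrected for wash batch and normalised by CrossNorm. It held 10 of the 11 probes and was used as an alternative.

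Here, median signals were taken to log2, outlier spots left out, spots averaged per probe and arrays quantile normalised. Probes well above background on 50% of the arrays of at least 1 group were tested with limma 3.58.1 (R 4.3.3), with terms for group and wash batch, Benjamini-Hochberg adjustment over 37591 probes, and genes were called where the change exceeded 1.5-fold and the adjusted p did not exceed 0.05. A gene was represented by its brightest tested probe. The script was tested on simulated data. The number of arrays limits the precision.

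All members, other *Cyp2c* genes and *Nr1i2* were named whatever they showed, and from each list at most 8 called genes. The members and lists were chosen with earlier results of these data known.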

Additional observations from a re-analysis of the deposited data

Results flagged for a closer look

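Dixon's test was applied to each of the 9 genes in each of the 4 groups, and chance flags about 1 in 20 such groups. In Pxr-/- CONT, replicate 4 lay far above the other 5 arrays for *Cyp2c29*, at a log2 signal of 10.20. In the same group, replicate 1 lay below the other 5 arrays for *Cyp2c38*, at 5.53.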

How the results depend on the processing

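Each result was recomputed in 16 other settings and without each of the 23 arrays. One setting, which left out both arrays with the highest *Car1* signal, was chosen after seeing the data. The count for PCN in WT mice was 3 and that for the response between genotypes 0 in all of them.

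For PCN in Pxr-/- mice 0 genes were called, and 1 was called with the deposited value table, the processed signal scaled to the 75th percentile, the stricter filter, the slide as a fixed or a random block, eBayes with trend, or array weights. It ran from 0 to 1 without single arrays. For genotype without PCN 3 genes were called, and 7 with the slide as a fixed block, only the groups of the contrast or array weights, 5 with the slide as a random block, and 4 with centring on the array median, the deposited value table, the stricter filter, no wash batch term, eBayes with trend or the mean of a gene's probes. The remaining 6 settings gave 3. It ran from 3 to 7 without single arrays. For genotype with PCN 5 genes were called, and 3 with the slide as a fixed block, the replicate block or without both arrays of high *Car1*, 4 with the processed signal, no filter or only the groups of the contrast, and 6 with the stricter filter or array weights. The remaining 8 settings gave 5. It ran from 3 to 7 without single arrays.

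Between samples with the same replicate number, r ran from -0.20 to 0.43 after the means of group and wash batch were removed. No pairs with unlike numbers were set beside them, so these values cannot decide whether the numbers pair mice. The main fit treated the mice as unpaired. With the replicate block the counts were 3, 0, 0, 3 and 3 for PCN in WT, PCN in Pxr-/-, the response between genotypes, genotype without PCN and genotype with PCN.

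Directions that changed belonged to uncalled values near 0. For the response between genotypes they were *Cyp2c29* (-0.18, slide fixed), *Cyp2c40* (-0.18, slide fixed, and -0.0387, array weights), *Cyp2c69* (-0.20, slide fixed, -0.0022, slide random, -0.0103, replicate block, and -0.0745, array weights) and *Cyp2c38* (-0.0829, processed signal, -0.0226, normexp, and -0.0331, array weights). Without single arrays the same response ran from -0.12 to 0.28 for *Cyp2c29*, -0.11 to 0.26 for *Cyp2c40*, -0.24 to 0.0759 for *Cyp2c68*, -0.12 to 0.19 for *Cyp2c69* and -0.015 to 0.14 for *Cyp2c38*. For *Cyp2c38* PCN in WT ran from -0.10 to 0.0513 and genotype without PCN from -0.0741 to 0.0142. The causes were not tested. Signal over background limits *Cyp2c38* and *Cyp2c44*, which are dim, and *Cyp2c55* in Pxr-/- CONT and on the lower Pxr-/- PCN arrays.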
